A study of Homo sapiens with 2 samples.

Results

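8 genes of the red cell membrane and its skeleton were followed in blood-generating heart-forming organoids (BG-HFOs): SPTB, ANK1 and EPB42 of the skeleton and its anchor, the anion exchanger gene SLC4A1, RHAG and RHCE of the Rh complex, and the glycophorin genes GYPB and GYPC. They were chosen by symbol and all 8 were found among the 36601 genes of the count tables. The data were single-cell RNA counts from 2 BG-HFOs on day 14, labelled 32.7 and 33.10, which were dissociated individually and made into 1 library each, with the libraries pooled for sequencing. Both organoids came from hES3 NKX2.5-eGFP, a human embryonic stem cell line with a fluorescent reporter at a cardiac gene, and both had the same differentiation protocol in Matrigel, with the WNT activator CHIR, the WNT inhibitor IWP2, BMP4, bFGF, VEGF, SCF, EPO, IL-6, IL-11, IGF-1, FLT3, IL-3 and SHH among the added factors. EPO, the growth factor of red cell production, was thus given to all cells, and the organoids have no circulation. They are therefore replicates of 1 condition from 1 cell line (n = 2), and comparisons were made between cell classes and between erythroid cells rather than between treatments.

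The red cell membrane is held by a meshwork of spectrin under the lipid bilayer. Ankyrin ties the beta chain of spectrin to the anion exchanger, and a second set of contacts ties the ends of spectrin, through protein 4.1R, to glycophorin C. During erythroid maturation these proteins are made in large amounts and are put together stepwise, and inherited loss of several of them causes fragile, spherical or elliptical red cells. Early embryonic erythroid cells carry zeta globin, the product of HBZ, as the embryonic alpha-type chain.

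Molecules were counted as unique molecular identifiers (UMIs), with 191152562 UMIs in 16866 cell barcodes of organoid 32.7 and 233818881 UMIs in 19948 barcodes of organoid 33.10. After a filter on cells, 16792 and 19893 cells were kept and fell into 26 clusters. Names were given from marker genes other than the 8 genes and HBZ. Clusters that did not meet the naming rule stayed unnamed. They held 2707 and 2971 cells (16.1% and 14.9%), which are in none of the classes compared below. 100 barcodes occurred in both libraries, and leaving them out changed no call for the 8 genes. The erythroid class (Ery) was 1 cluster of 790 and 1861 cells, with all 12 of its markers raised and with HBZ, AHSP, HBA2 and HBA1 as its leading genes. The megakaryocyte class (Mk) was made of 4 clusters with 1600 and 4233 cells, each with all 10 of its markers raised. The other classes were monocytic (Mo), granulocytic (Gran), endothelial (Endo, 3869 and 3977 cells), cardiomyocyte (CM, 1678 and 1933 cells), mesenchymal (MES) and posterior foregut endoderm (PFE). Throughout, paired values are given for organoid 32.7 first and organoid 33.10 second, and levels are counts per 1000000 UMIs (CPM) over all cells of a class in 1 organoid.

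Stretches of 250 bases before the transcription start were read from RefSeq (GRCh38.p14) to show the promoters of genes that behaved differently below. 4 are printed 5′ to 3′ on the strand of the gene. Capitals mark each AGATAA or TGATAA, which are forms of the site bound by GATA factors, and each CACCC, a short form of the site bound by KLF factors, on either strand. EPB42 (chr15:43221019-43221268, minus strand) is shown as a gene that followed HBZ within the erythroid class, RHAG (chr6:49636840-49637089, minus strand) as a gene with similar levels in Ery and Mk, SPTB (chr14:64879908-64880157, minus strand) for the skeleton, and GYPC (chr2:126655908-126656157, plus strand) as the gene found in every class.
EPB42: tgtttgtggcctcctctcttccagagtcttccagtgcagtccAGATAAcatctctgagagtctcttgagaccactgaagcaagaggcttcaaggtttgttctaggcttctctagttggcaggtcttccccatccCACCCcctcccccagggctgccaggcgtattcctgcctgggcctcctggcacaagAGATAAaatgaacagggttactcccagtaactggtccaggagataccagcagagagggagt
RHAG: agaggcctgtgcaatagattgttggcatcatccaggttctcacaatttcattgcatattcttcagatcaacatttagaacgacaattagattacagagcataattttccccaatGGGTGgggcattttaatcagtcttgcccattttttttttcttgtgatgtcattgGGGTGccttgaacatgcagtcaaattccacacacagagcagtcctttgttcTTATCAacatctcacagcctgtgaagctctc
SPTB: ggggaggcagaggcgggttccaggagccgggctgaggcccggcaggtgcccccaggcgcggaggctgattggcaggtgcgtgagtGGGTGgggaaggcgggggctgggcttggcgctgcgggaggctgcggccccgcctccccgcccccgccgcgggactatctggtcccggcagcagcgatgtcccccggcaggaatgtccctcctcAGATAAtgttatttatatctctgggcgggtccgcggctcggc
GYPC: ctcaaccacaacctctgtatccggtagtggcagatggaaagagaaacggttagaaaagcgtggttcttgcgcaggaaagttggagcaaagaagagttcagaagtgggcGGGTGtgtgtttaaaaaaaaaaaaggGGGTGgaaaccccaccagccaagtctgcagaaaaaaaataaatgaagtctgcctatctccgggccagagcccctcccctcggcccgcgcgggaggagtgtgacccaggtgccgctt

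EPB42 held AGATAA at 208 and 61 bases before the start and CACCC at 116 bases. RHAG held TGATAA at 31 bases, read on the opposite strand, and CACCC at 136 and 82 bases. SPTB held AGATAA at 42 bases and GYPC held neither GATA form. Other forms of the GATA site were not searched for. 6 of the 8 genes had an entry, with 9 windows in all because GYPB, SPTB and RHCE had 2 starts each. The 2 windows of GYPB overlap, as do the 2 of RHCE, so the 9 are not separate stretches. Either GATA form stood in 5 of the 9 windows, 1 for each of GYPB, SPTB, EPB42, RHAG and RHCE, while 14.6% of all 35116 promoters of the table held one in a window of the same length. CACCC stood in 8 of the 9 windows and in 54.7% of all promoters. The longer form CCACACCC stood in 0 of the 9 windows and in 2.97% of all promoters. These matches are a description of letters and not of binding.

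The question put to the classes was where the RNA of each membrane gene was found. For 6 of the 8 genes (GYPB, GYPC, SLC4A1, ANK1, SPTB and EPB42) both Ery sums lay above every sum of the other classes, which held for 3.52% of all genes tested. RHAG was highest in Mk, and RHCE was at overlapping levels in Ery and Mk. GYPC was the gene with the highest levels outside the blood classes.

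SPTB encodes beta spectrin, the chain that carries the ankyrin site, and lies on chr14:64746283-64879907 (GRCh38, minus strand, 36 exons in the canonical transcript). Its level was 69.7 and 69.1 CPM in Ery, 13.3 and 16.5 CPM in Mk, 6.90 and 7.32 CPM in CM and 0.411 and 1.47 CPM in Endo. Ery stood highest and Mk second without overlap. PLEKHG3 overlaps SPTB on the opposite strand. SPTB also has muscle forms, and counts from the 3′ end did not tell the forms apart.

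ANK1 encodes ankyrin-1, the adaptor between spectrin and the anion exchanger, on chr8:41653220-41896741 (minus strand, 43 exons). It had 403 and 426 CPM in Ery, 57.1 and 78.1 CPM in Mk, 14.7 and 23.4 CPM in CM and 2.93 and 9.45 CPM in Endo. The order was the same as for SPTB, and Mk did not overlap with Ery. ANK1 too has a muscle form, and a microRNA gene, MIR486-1, lies within it.

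EPB42 encodes a transglutaminase-like protein without enzyme activity that binds the anion exchanger and ankyrin, on chr15:43197227-43221018 (minus strand, 13 exons). Its level was low, at 24.7 and 28.3 CPM in Ery, 1.64 and 2.19 CPM in Mk, 0.814 and 1.35 CPM in CM and 0.0771 and 0.409 CPM in Endo. Ery stood far above the rest in both organoids.

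SLC4A1 encodes the chloride and bicarbonate exchanger of the red cell, on chr17:44248390-44268141 (minus strand, 20 exons). Ery had 121 and 136 CPM, Mk 1.64 and 7.29 CPM, CM 2.66 and 5.73 CPM and Endo 0.514 and 2.45 CPM. The ranges of Mk, CM and Mo overlapped, so that no class came second beyond its spread. In PFE, the smallest class with 468 and 33 cells, no UMI of SLC4A1 was counted.

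RHAG encodes the Rh-associated glycoprotein, which is needed to bring the Rh proteins to the surface, on chr6:49605175-49636839 (minus strand, 10 exons). Its level was 309 and 270 CPM in Mk (289 ± 27.5, SD, n = 2) and 231 and 219 CPM in Ery (225 ± 8.44, SD, n = 2). Both Mk sums lay above both Ery sums. The remaining classes were far below, with 8.47 and 14.7 CPM in CM and 2.34 and 5.83 CPM in Endo.

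RHCE encodes the protein that carries the C/c and E/e blood group antigens, on chr1:25362249-25430192 (minus strand, 10 exons). It had 23.3 and 35.0 CPM in Ery (29.1 ± 8.30, SD, n = 2) and 24.7 and 28.9 CPM in Mk (26.8 ± 2.92, SD, n = 2). The Mk values lay within the span of the Ery values. CM had 3.58 and 4.14 CPM and Endo 1.23 and 1.42 CPM. RHCE shares most of its sequence with RHD, so that its counts are uncertain, and TMEM50A overlaps it on the opposite strand.

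GYPB encodes glycophorin B, a sialic acid-rich surface protein of the MNS blood group, on chr4:143996104-144019380 (minus strand, 5 exons). It had 1003 and 1196 CPM in Ery (1100 ± 137, SD, n = 2), 162 and 246 CPM in Mk, 41.1 and 52.5 CPM in CM and 8.72 and 25.9 CPM in Endo. Its order was Ery, then Mk, then the rest. GYPE is a near-identical copy, and reads may be split between such copies or lost.

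GYPC encodes glycophorin C, the membrane anchor of protein 4.1R, on chr2:126656133-126696667 (plus strand, 4 exons). Ery had 911 and 870 CPM (891 ± 28.8, SD, n = 2), Endo 351 and 326 CPM, CM 336 and 330 CPM and MES 254 and 247 CPM. Mk, at 127 and 124 CPM, was below these non-blood classes, and Mo was lowest with 98.2 and 96.8 CPM. Endo and CM did not differ beyond their spread, and neither did Gran (117 and 135 CPM), Mk and PFE. GYPC was thus the only one of the 8 genes with Mk below Endo.

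**Figure D1:**
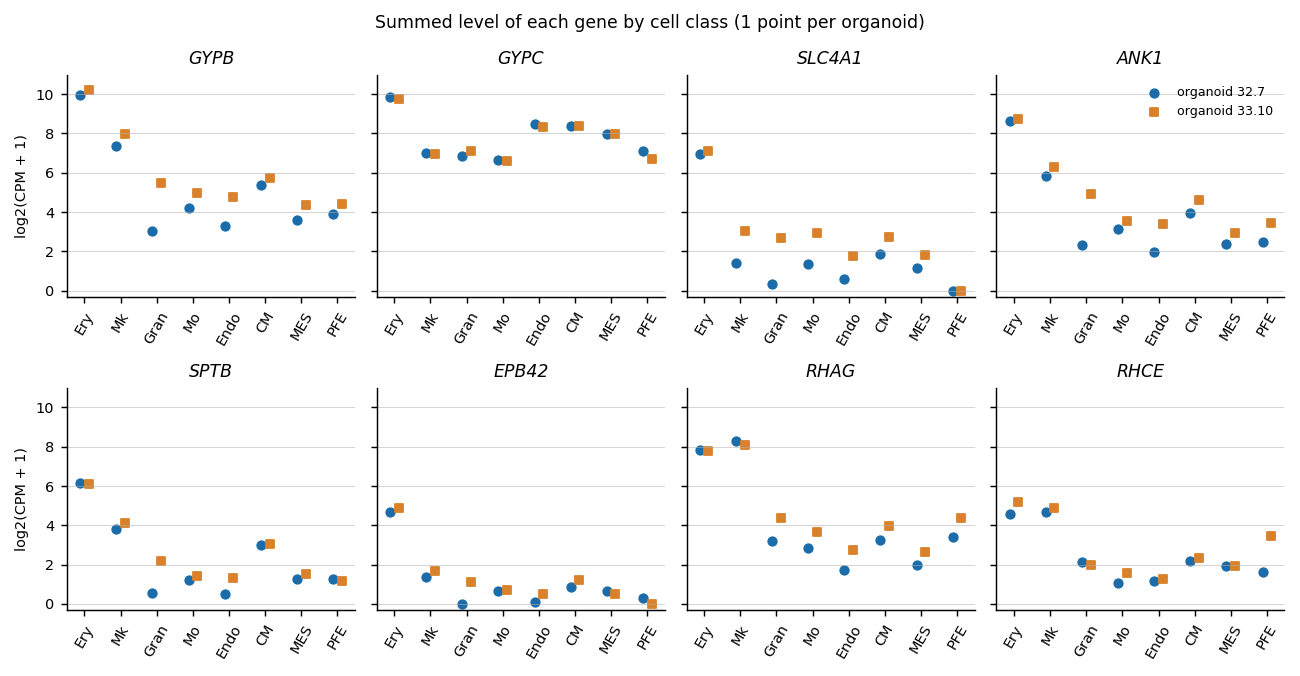
Summed level of each of the 8 genes in 8 cell classes, as log2(CPM + 1) on the vertical axis with 1 point per organoid (circles 32.7, squares 33.10). Ery is highest for 6 genes, RHAG is highest in Mk (309 and 270 CPM against 231 and 219 CPM), and GYPC is present in every class, lowest in Mo (98.2 and 96.8 CPM).

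Free RNA from lysed cells had not been removed from the deposited counts and can add UMIs to cells that do not make a transcript, so low levels outside Ery were read against HBZ. Within an organoid, a single source of free RNA would keep the UMIs of its genes in 1 ratio in every class. HBZ in Mk was at 2.96% and 3.81% of its level in Ery. SLC4A1 was at 1.35% and 5.38%, below HBZ in one organoid and above it in the other. EPB42 stood at 6.63% and 7.75%.

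The remaining genes held a larger share of their Ery level in Mk. GYPC had 13.9% and 14.2%, ANK1 14.2% and 18.3%, GYPB 16.1% and 20.6% and SPTB 19.1% and 23.9%. RHAG had 134% and 123%, and RHCE 106% and 82.4%. The 12 Ery markers ran from 3.72% to 69.7% in Mk: AHSP, which binds free alpha globin, had 3.78% and 3.72%, HBA1 17.8% and 19.6%, and HBG1, a fetal gamma globin gene, 69.6% and 66.4%. All 12 Ery markers had UMIs in Mk, summing to 22257 and 24131 CPM against 70500 and 70744 CPM in Ery. The ratio to HBZ thus depends on the reference gene, and with HBA1 in its place the shares of GYPB and ANK1 in Mk were close to those of the reference. The ratio to HBZ also varied among Ery cells, as given with the HBZ order below.

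Per UMI of HBZ, relative to Ery of the same organoid, RHAG had 45.2 and 32.4 times as many UMIs in Mk and RHCE 35.9 and 21.6 times. RHCE was also at 36.3 and 37.9 times in the small PFE class, but from only 9 and 8 UMIs, where the HBZ ratio of Ery gave 0.248 and 0.211. The PFE values are therefore imprecise. GYPC had 67.6 and 22.9 times as many in Endo and 10.9 and 8.84 times in CM. In contrast, SLC4A1 in Endo was at 0.745 and 1.10 times and in CM at 0.647 and 0.987 times the ratio of Ery. GYPB in CM was at 1.21 and 1.02 times. Over the 14 sums outside Ery the median of this ratio was 0.894 for SLC4A1, 1.18 for EPB42, 1.32 for ANK1, 1.39 for GYPB, 2.11 for RHAG, 2.31 for SPTB, 8.04 for RHCE and 13.2 for GYPC. For SLC4A1, EPB42, ANK1 and GYPB most levels outside the Ery and Mk classes were therefore near the ratio that HBZ shows.

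**Figure D2:**
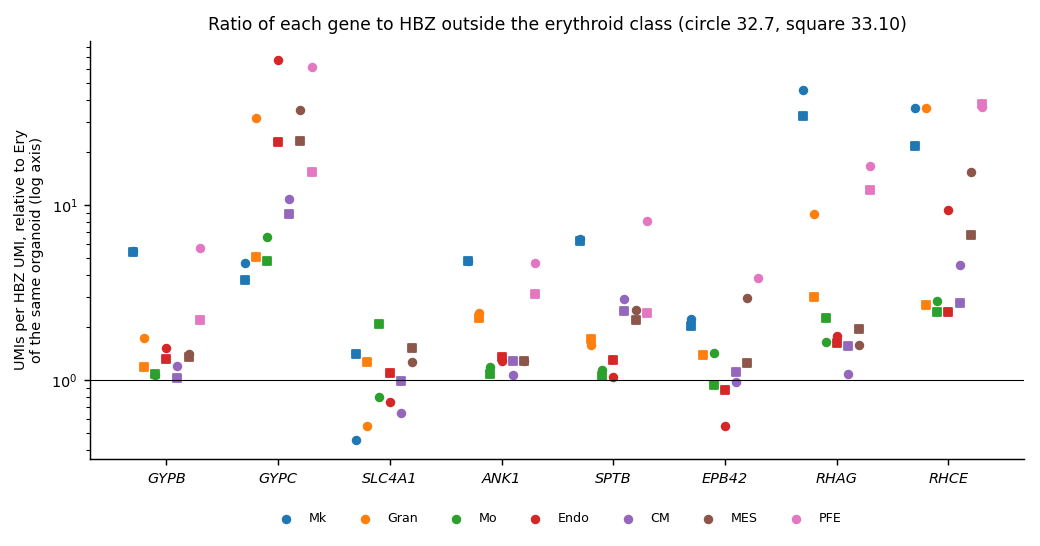
UMIs of each gene per UMI of HBZ outside Ery, divided by the same ratio in Ery of that organoid, on a log axis (circles 32.7, squares 33.10, colours for classes, sums with no UMI left out). Points at 1 have the ratio of Ery, and the highest points of GYPC, RHAG and RHCE are at 67.6 (Endo), 45.2 (Mk) and 37.9 (PFE, from 8 UMIs).

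The share of cells with at least 1 UMI was compared after each cell had been thinned to 2000 UMIs. This left out 134 and 131 Ery cells, 429 and 539 Mk cells and 284 and 192 CM cells that were shallower. Median depths before thinning were 12265 and 8993 UMIs in Ery, 5500 and 6531 in Mk and 7935.5 and 9942 in CM. CM, a class outside blood, gave the background, except for GYPC, which is widely expressed, and for ANK1 and SPTB, which have muscle forms. Predicted doublets were kept and, over both organoids, made up 18.5% of the larger CM cluster and 8.74% of the smaller one.

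In thinned Ery cells GYPB was found in 79.9% and 80.2%, against 2.87% and 4.25% of CM cells. GYPC was found in 75.8% and 73.2% of Ery cells and in 46.1% and 45.5% of CM cells. SLC4A1 was found in 15.2% and 20.9% of Ery cells and in 0.287% and 0.402% of CM cells. Without thinning, SLC4A1 was found in 41.5% (exact 95% binomial interval 38.1 to 45.0%) and 45.3% (43.0 to 47.6%) of Ery cells, and in 1.49% and 2.85% of CM cells. These intervals cover counting error only.

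ANK1 was found in 42.1% and 43.4% of thinned Ery cells, SPTB in 11.7% and 9.83% and EPB42 in 4.73% and 4.91%, with 0.0717% and 0.23% of CM cells for EPB42. RHCE was found in 5.18% and 6.65% of Ery cells and in 3.93% and 5.22% of Mk cells, with 1.22% and 0.632% in CM. RHAG was found in more Mk than Ery cells in both organoids, 39.0% and 39.9% against 34.6% and 33.6%, with 0.861% and 1.55% in CM. Without thinning the order for RHAG was the opposite, with 55.8% and 66.5% of Mk cells and 69.5% and 70.4% of the deeper Ery cells.

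RHAG was measured in each of the 4 Mk clusters. The cluster led by PF4, PPBP and PLEK, which had 397 and 1267 cells, had the highest level with 442 and 346 CPM and the lowest HBZ with 115 and 395 CPM. The cluster led by LINC00534, PPBP and PF4 had 290 and 253 CPM of RHAG. The cluster led by PLEK, HBD and COL24A1, in which all 5 proliferation genes were raised and progenitor markers passed the naming rule too, had 227 and 223 CPM. The shallowest cluster, with medians of 1345 and 1773.5 UMIs, had 188 and 157 CPM of RHAG and the highest HBZ of the 4 with 4327 and 4374 CPM. RHAG was therefore highest in the Mk cluster with the least HBZ in both organoids. RHCE was also highest in that cluster, at 36.5 and 38.5 CPM, while GYPB was lowest there, at 67.9 and 104 CPM, and SLC4A1 had 0 UMIs and 1.94 CPM.

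Differences between classes were tested on UMIs summed per class and organoid, with edgeR's quasi-likelihood test, TMM scaling and Benjamini-Hochberg adjustment over 21857 genes. TMM scales each sum so that the bulk of genes is level. Against Mk, 6 of the 8 genes were higher in Ery at an adjusted p under 0.05, beside 20.4% of all genes tested. SLC4A1 rose most, with a log2 fold change of 5.05 (SE 0.75, adjusted p = 0.000124). EPB42 followed with 4.10 (SE 0.45, adjusted p = 5.54e-06).

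GYPC was higher in Ery than in Mk by 3.18 on the log2 scale (SE 0.16, adjusted p = 9.87e-09). ANK1, GYPB and SPTB were higher by 2.96, 2.78 and 2.56. The Rh complex genes did not pass. RHAG had a log2 fold change of -0.01 (SE 0.37, adjusted p = 0.992) and RHCE one of 0.47 (SE 0.25, adjusted p = 0.138). With plain library sizes, the scale on which CPM of RHAG was higher in Mk in both organoids, its log2 fold change was -0.36 (SE 0.39, adjusted p = 0.47).

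Against Endo, all 8 genes were higher in Ery, beside 27.8% of all genes tested. The differences ran from 2.01 for GYPC (SE 0.15, adjusted p = 7.97e-08) and 5.07 for RHCE (SE 0.31) to 7.37 for EPB42 (SE 0.55, adjusted p = 6.97e-08). RHAG was higher by 6.41, GYPB by 6.62, ANK1 by 6.70, SPTB by 6.83 and SLC4A1 by 7.07. GYPC thus had the smallest of the 8 differences. The sizes for EPB42 and SLC4A1 rest on few UMIs in Endo (3 and 15, and 20 and 90), and free RNA was not removed from these sums. Over the alternatives, which include a subtraction of free RNA by the HBZ ratio, EPB42 ran from 6.03 to 12.7 and SLC4A1 from 5.78 to 10.8. The order of the larger differences is therefore imprecise.

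Mk against Endo was added after the levels in Mk had been seen. 7 of the 8 genes were higher in Mk, beside 29.1% of all genes tested, and 1 was lower, beside 25.3%. RHAG differed most (6.42, SE 0.48, adjusted p = 7.69e-08), followed by RHCE (4.60, SE 0.30), SPTB (4.27), GYPB (3.84), ANK1 (3.73) and EPB42 (3.27). Over the alternatives SPTB ran from 3.47 to 6.44, GYPB from 3.25 to 5.47, ANK1 from 3.04 to 5.43 and EPB42 from 2.36 to 7.69. The order of these differences is therefore imprecise. GYPC was lower in Mk by a log2 fold change of -1.17 (SE 0.15, adjusted p = 1.41e-05). The call for SLC4A1 (2.02, SE 0.80, adjusted p = 0.0474) was lost with DESeq2, with library sizes, without predicted doublets and at a finer clustering, where adjusted p-values were 0.22, 0.094, 0.084 and 0.11.

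**Figure D3:**
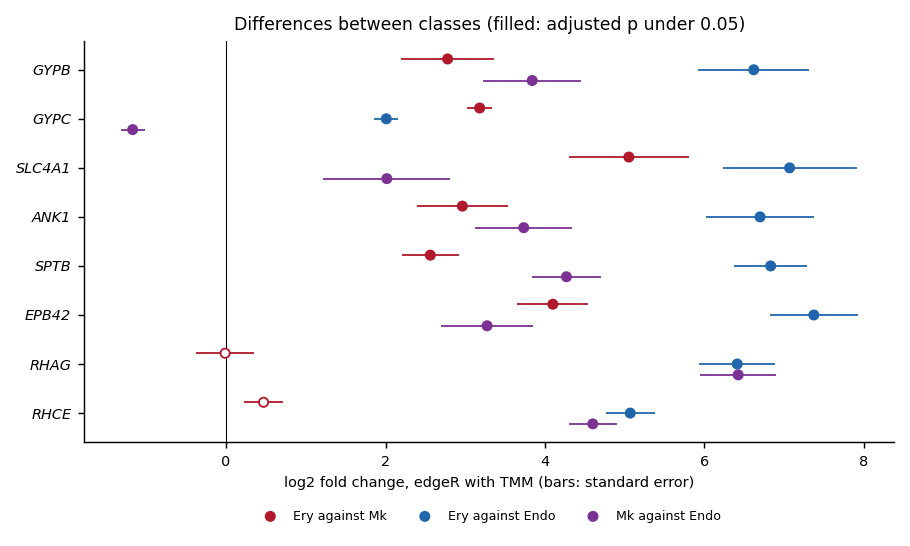
Log2 fold changes of the 8 genes between classes from edgeR with TMM, as points with standard errors, filled where the adjusted p was under 0.05. RHAG and RHCE are near 0 for Ery against Mk (-0.01 and 0.47), and GYPC is the only gene below 0 for Mk against Endo (-1.17).

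With library sizes in place of TMM the median of all genes moved from near 0 to -0.52 for Ery against Mk, -0.64 for Ery against Endo and -0.18 for Mk against Endo. Calls over all genes then shifted from 4468 higher and 5571 lower to 2484 and 8209 for Ery against Mk, from 6076 and 6392 to 3024 and 10370 for Ery against Endo, and from 6371 and 5538 to 4783 and 7436 for Mk against Endo. For the 8 genes no direction changed in these class comparisons.

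28 other genes of the red cell membrane (glycophorins, spectrin and its partners, adducins, tropomodulin, blood group carriers and transporters) were counted in the same way. In Ery against Mk, 15 were higher, 6 were lower and 7 did not pass, with a median log2 fold change of 0.52 against -0.17 for all genes, of which 20.4% were higher and 25.5% lower. With library sizes the counts were 13 higher and 9 lower, where 11.4% of all genes were higher and 37.6% lower. ADD2, the beta adducin at spectrin-actin junctions, was higher by 4.27 (SE 0.27), and TMOD1, which caps the short actin filaments there, by 3.50.

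3 other genes of that list led among those lower in Ery than in Mk. STOM, the membrane protein stomatin, had a log2 fold change of -4.74 (SE 0.31), CD47, a surface protein that restrains phagocytes, one of -2.60 (SE 0.19) and DMTN, the actin-bundling dematin, one of -1.76 (SE 0.23). CD47 was at 51.5 and 57.5 CPM in Ery and at 466 and 376 CPM in Mk. Against Endo, 20 of the 28 were higher in Ery and 7 were lower, with a median of 2.51 against -0.03 for all genes, of which 27.8% were higher and 29.2% lower. GYPE was among the 3 that rose most (6.93), and BCAM, the laminin-binding Lutheran protein, fell most (-3.59).

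The 13 paralogues of the 8 genes, such as the spectrins and ankyrins of other tissues, were counted too. In Ery against Mk 12 were tested, of which 1 was higher and 6 were lower, with a median of -0.68 against -0.17 for all genes. Of all genes 20.4% were higher and 25.5% lower. With library sizes 1 paralogue was higher and 7 were lower, where 11.4% of all genes were higher and 37.6% lower. ANK3, the ankyrin of axons and epithelia, was lower in Ery by a log2 fold change of -4.28, at 6.59 and 6.93 CPM in Ery against 174 and 161 CPM in Mk and 16.7 and 22.4 CPM in Endo. Mk therefore held both ANK3 and ANK1, and ANK3 was higher in Mk than in Endo by 3.37. TGM2, an active transglutaminase of the family to which EPB42 belongs, was the one higher in Ery (3.33, SE 0.20). SPTBN1 and SPTAN1, the spectrins of most other cells, were lower in Ery than in Endo by log2 fold changes of -4.30 and -3.48.

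The next question was how the 8 genes changed among erythroid cells. Ery cells of each organoid were ordered by the share of their UMIs that came from HBZ and cut into 5 bins of equal size, from bin 1 (lowest) to bin 5, of 158 cells each in 32.7 and 372 or 373 cells in 33.10. The median HBZ share went from 0.659% and 0.457% to 10.2% and 8.93%, by construction. This order is not a measured time. Other values moved with it: cells of bin 1 had medians of 6589.5 and 5918 UMIs against 9437 to 15714 in the others, and the 8 haematopoietic progenitor markers summed to 485 and 598 CPM in bin 1 and to 173 and 157 CPM in bin 5. Of these markers 7 and 8 had UMIs in bin 1 and 5 and 8 in bin 5, with PRSS57, PTPRC and SMIM24 at 0 in bin 5 of 32.7. The 9 granulocytic markers summed to 163 and 312 CPM in bin 1 and to 31.3 and 21.0 CPM in bin 5, with ELANE at 0 in both bins of both organoids. A UMI of 1 of 5 proliferation genes was found in 39.9% and 41.8% of cells of bin 1, in 54.4% and 54.8% of bin 5 and in 51.9 to 74.1% of bins 2 to 5. These shares were not thinned and so also follow depth. The summed level of the 5 genes went from 590 CPM in bin 1 to 1068.5 CPM in bin 5 of 32.7. In 33.10 it went the other way, from 705 to 506 CPM. The part of these in the results below was tested only as far as the depth window and the proliferation UMIs given there.

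SLC4A1, EPB42 and GYPC went up at each of the 4 steps in both organoids, which held for 3 of the 8 genes and for 0.384% of the 12497 genes tested in the bins. SLC4A1 went from 15.4 to 41.6, 110, 172 and 275 CPM in 32.7 and from 31.5 to 61.1, 113, 192 and 276 CPM in 33.10. Its level in bin 5 was 17.9 and 8.75 times that in bin 1, with HBZ itself at 12.2 and 15.4 times. Bin 1 held only 28 and 120 UMIs of SLC4A1. The organoids were close in bin 5 and apart in bin 1.

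EPB42 went from 9.89 to 17.9, 20.5, 31.9 and 42.7 CPM in 32.7 and from 7.88 to 21.2, 28.4, 36.4 and 45.2 CPM in 33.10, a ratio of 4.32 and 5.73. Its levels in bin 1 rest on 18 and 30 UMIs. GYPC went from 552 to 752, 944, 1118 and 1150 CPM and from 413 to 684, 866, 1026 and 1316 CPM, a ratio of 2.08 and 3.18. Over the whole order the ratio of GYPC was thus smaller than those of SLC4A1 and EPB42. After thinning, SLC4A1 was found in 2.52% and 7.05% of cells of bin 1 and in 34.1% and 36.6% of bin 5.

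GYPB had 891, 817, 997, 1105 and 1246 CPM over the bins of 32.7 and 977, 1058, 1202, 1327 and 1399 CPM in 33.10. SPTB had 48.3, 77.7, 69.4, 78.5 and 65.8 CPM and 48.6, 68.7, 74.7, 78.6 and 70.9 CPM. ANK1 had 321, 437, 402, 455 and 363 CPM and 386, 424, 484, 443 and 383 CPM. SPTB and ANK1 were thus highest in bin 3 or 4 and bin 5 was at 1.13 and 0.991 times bin 1 for ANK1.

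RHAG stayed between 215 and 245 CPM in 32.7 and went from 256 to 205 CPM in 33.10, with ratios of bin 5 to bin 1 of 1.03 and 0.802. RHCE went from 15.4 to 35.4 CPM in 32.7 and from 34.1 to 41.4 CPM in 33.10, not in even steps. RHCE levels in bin 1 rest on 28 and 130 UMIs, and bin 5 was at 2.30 and 1.21 times bin 1. Unlike SLC4A1 and EPB42, neither Rh complex gene went up at each step in both organoids. CPM is pushed down for other genes where globins take more of the UMIs, since all globins together held 6.28% and 5.03% of UMIs in bin 1 and 20.0% and 18.8% in bin 5. Per UMI of HBZ, GYPB had 0.103 and 0.159 UMIs in bin 1 and 0.0118 and 0.0148 in bin 5, beside 0.112 and 0.154 in Mk. RHAG had 0.0249 and 0.0415 in bin 1, beside 0.215 and 0.169 in Mk. The Ery ratio used above as reference is thus an average over unlike cells.

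**Figure D4:**
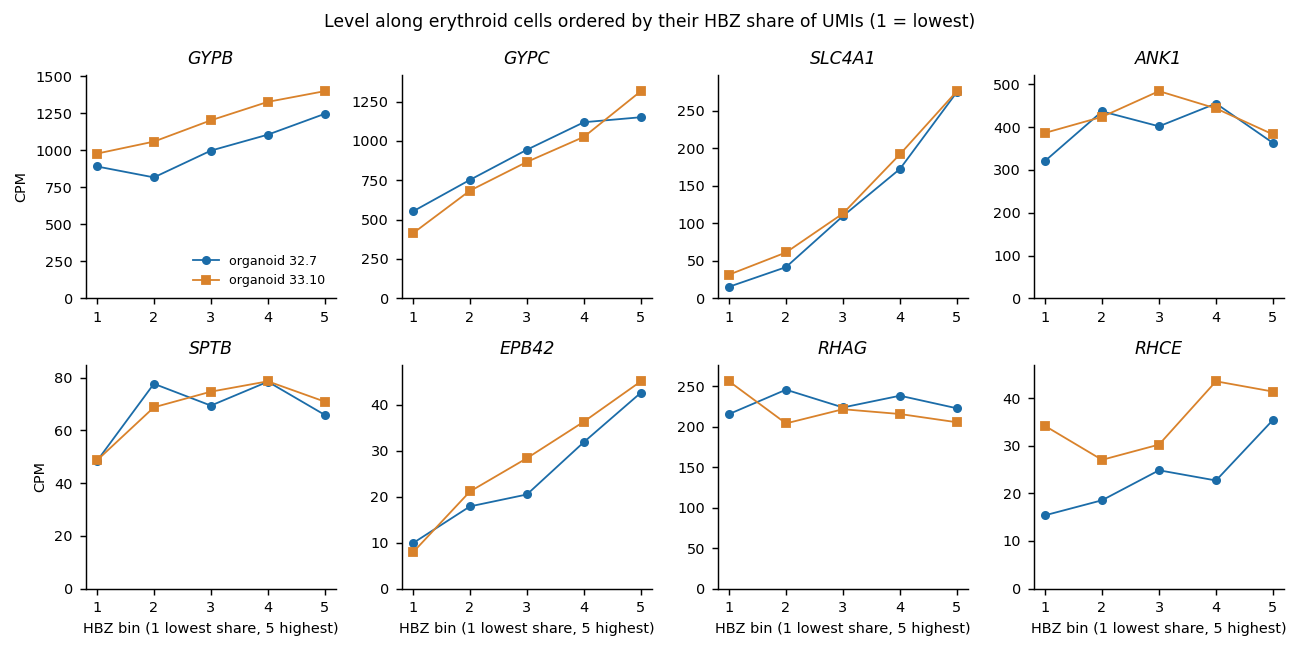
Level in CPM of each gene over the 5 bins of Ery cells ordered by HBZ share (1 lowest, 5 highest), with 1 line per organoid and separate vertical axes from 0. SLC4A1, EPB42 and GYPC climb at every step in both organoids, while RHAG stays between 204 and 256 CPM.

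Bin 3 against bin 1, tested with edgeR on the sums, gave 4 of the 8 genes as higher, beside 0.608% of all genes tested. SLC4A1 rose by 2.44 (SE 0.24, adjusted p = 0.000879), EPB42 by 1.78 (SE 0.24, adjusted p = 0.00385), GYPC by 1.14 (SE 0.19, adjusted p = 0.019) and SPTB by 0.82 (SE 0.15, adjusted p = 0.0272) on the log2 scale. ANK1 (0.57, adjusted p = 0.0711) and GYPB (0.48, adjusted p = 0.195) did not pass, nor did RHCE (0.35) or RHAG (0.16). With the organoid as a replicate block ANK1 and GYPB passed too, at adjusted p-values of 0.0037 and 0.019. Over the alternatives that gave a p, the block included, ANK1 passed in 4 of 11, GYPB in 2 of 11 and EPB42 in 9 of 10. The call for SPTB was lost with library sizes, among cells of 3000 to 30000 UMIs, in the order by all globins and among cells with no proliferation UMI, where adjusted p-values were 0.0715, 0.185, 0.127 and 0.633.

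Bin 5 against bin 3 gave 2 of the 8 genes as higher, beside 0.336% of all genes tested. They were SLC4A1 (1.74, SE 0.21, adjusted p = 0.00619) and EPB42 (1.26, SE 0.19, adjusted p = 0.0136). GYPC (0.87, adjusted p = 0.0733), GYPB (0.70, adjusted p = 0.0889), RHCE (0.91, adjusted p = 0.212) and RHAG (0.37, adjusted p = 0.284) did not pass, but passed with the organoid as a replicate block, at adjusted p-values of 0.0021, 0.0025, 0.012 and 0.048. GYPC and GYPB also passed with DESeq2, without the filter on low counts and in the order by all globins, and RHCE without the filter. SPTB (0.36) and ANK1 (0.19) passed in neither fit. In CPM, bin 5 was at 0.995 and 0.927 times bin 3 for RHAG. The ratios were 0.949 and 0.949 for SPTB and 0.903 and 0.791 for ANK1. The CPM of RHAG, SPTB and ANK1 thus did not rise from bin 3 to bin 5, although their log2 fold changes with TMM were above 0. In the fit without the block, SLC4A1 and EPB42 were thus the genes called in both parts of the order. With the block GYPC and GYPB were called in both parts as well. Among the 303 and 911 cells with no UMI of the proliferation genes, 0 of the 8 genes passed this comparison in edgeR, beside 5 of all 7627 genes tested. SLC4A1 had 1.28 (adjusted p = 0.186) and EPB42 had 1.13 (adjusted p = 0.493). DESeq2 was not run on these cells. Among the 500 and 1476 cells of 3000 to 30000 UMIs SLC4A1 passed (adjusted p = 0.0131) and EPB42 did not (1.16, adjusted p = 0.129).

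Over the whole order, bin 5 against bin 1, all 8 genes were called higher with TMM, beside 9.91% of all genes tested. SLC4A1 rose by 4.18 (SE 0.24, adjusted p = 2.21e-06), EPB42 by 3.04 (SE 0.23, adjusted p = 1.01e-05) and GYPC by 2.01 (SE 0.20, adjusted p = 6.82e-05). RHCE (1.26), SPTB (1.18) and GYPB (1.18) followed. ANK1 (0.75, SE 0.13, adjusted p = 0.00294) and RHAG (0.54, SE 0.15, adjusted p = 0.0273) rose least.

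The calls of ANK1, RHAG and RHCE in this comparison depended on the scaling. With library sizes the median of all genes fell to -0.73, from -0.04 with TMM, and 5 of the 8 genes were called higher: SLC4A1 (3.47), EPB42 (2.34), GYPC (1.35), GYPB (0.50) and SPTB (0.49). ANK1 then had 0.07 (adjusted p = 0.68) and RHCE 0.56 (adjusted p = 0.20), while RHAG turned to -0.15 (adjusted p = 0.39). RHAG also lost its call in the depth window of 3000 to 30000 UMIs (0.47, adjusted p = 0.129), and RHAG (0.70, adjusted p = 0.0862) and RHCE (0.94, adjusted p = 0.162) lost theirs among cells with no proliferation UMI. In the order by all globins SPTB did not pass (0.46, adjusted p = 0.11), and GYPB rose by 2.18 instead of 1.18. Calls over all genes shifted from 1238 higher and 922 lower to 277 and 5686. In the shorter comparisons they shifted from 76 and 36 to 42 and 144 (bin 3 against bin 1, median -0.25) and from 42 and 11 to 32 and 1654 (bin 5 against bin 3, median -0.46).

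**Figure D5:**
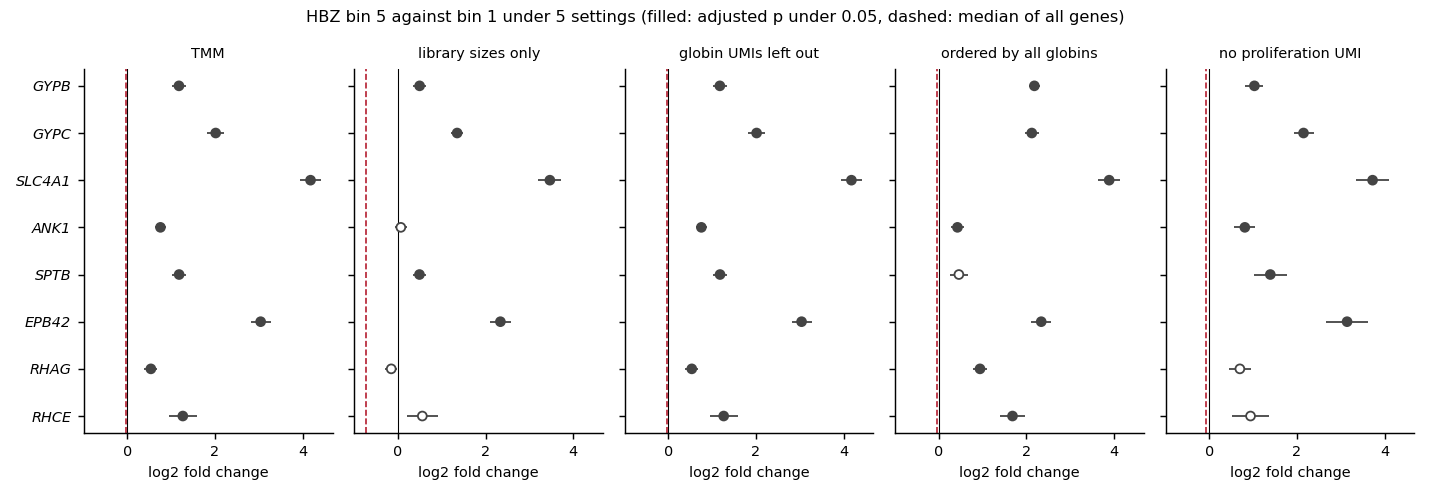
Log2 fold changes of the 8 genes for bin 5 against bin 1 under 5 settings, with standard errors, filled where the adjusted p was under 0.05, and the median of all genes as a dashed line. SLC4A1, EPB42, GYPC and GYPB are called in every panel, while ANK1, RHAG and RHCE lose their call with library sizes (0.07, -0.15 and 0.56).

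Of the 28 other membrane genes 27 were tested in the bins. In bin 5 against bin 1, 15 were higher and 2 were lower, with a median of 0.86 against -0.04 for all genes, of which 9.91% were higher and 7.38% lower. With library sizes 5 were higher and 7 were lower, where 2.22% of all genes were higher and 45.5% lower. SLC29A1, a nucleoside transporter, and SMIM1, the carrier of the Vel antigen, both had log2 fold changes of 1.63, and TMOD1 had 1.52. CD47 was lower (-0.97, adjusted p = 0.0017). STOM was lower as well (-1.69), at an adjusted p of 0.0496. In bin 3 against bin 1, 3 of the 27 were higher, beside 0.608% of all genes, with ADD2 (1.47) and SMIM1 (0.95) among them. With library sizes 1 was higher and 1 lower, where 0.336% of all genes were higher and 1.15% lower. In bin 5 against bin 3 TMOD1 alone was higher (0.97, adjusted p = 0.037), beside 0.336% of all genes. With library sizes TMOD1 did not pass (0.53, adjusted p = 0.0724). Of the 27, 4 others were then lower, near the share of all genes, of which 13.2% were lower. Of the 8 paralogues tested, TGM2 was higher in bin 5 than in bin 1 (1.79), and SPTAN1 (-2.56), EPB41L2 (-1.66) and ANK2 were lower. With library sizes 1 was higher and 7 were lower.

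The genes whose pattern was most like each of the 8 were found by Pearson's r of log2(CPM + 1) over 52 points, which are 26 clusters in 2 organoids, among 15079 genes. The points share libraries, free RNA and depth, so r is a description. SLC4A1 was most like PKLR (0.93), the pyruvate kinase of red cells, and EPB42 most like FECH (0.96), the last enzyme of haem synthesis. GYPB was most like its copy GYPE and the erythroid factor gene KLF1 (both 0.97), and ANK1 most like GYPE and GYPB (both 0.96). SPTB was most like ANK1 and XK (both 0.92).

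RHAG was most like GATA1 (0.98), which encodes a factor shared by the erythroid and megakaryocyte lineages, and HBG1 (0.97). RHCE was most like HBQ1 and GFI1B (both 0.91). GYPC was most like SLC25A39 (0.85) and BSG (0.77), a lower r than that of the leading gene of any of the others. Among the 8 genes GYPB and ANK1 had an r of 0.96 and SLC4A1 and EPB42 one of 0.91, while GYPC had -0.01 with RHAG and -0.08 with RHCE.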

How the data were processed

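The deposited counts are the output of Cell Ranger 7.0.0, with which the authors aligned 10x 3′ reads to GRCh38 (intronic ones included) and reduced them to UMIs. The values are whole-number UMI counts per gene and barcode, separate for each organoid. They precede the study's depth equalization, free RNA removal and cell filter.

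A cell was used if it had 50 to 11000 genes and a mitochondrial share below 30%. Clustering used scanpy 1.11.5 and leidenalg 0.10.2 in Python 3.11.15, on 2989 variable genes without the 8 genes, HBZ and the related lists, with 13 principal components, 20 neighbours and resolution 0.8. A class name needed 3 or more of the class's markers above the median cluster by a log2 ratio of 1 or more, after adding 5 CPM to both. The mean ratio over all markers of the class had to be 1 or more too. The median marker had to reach a fraction of 0.25 of its level in the highest cluster. A cluster with markers of unrelated classes stayed unnamed, as did one whose leading genes held more markers of another class. This rule was written after the clusters had been seen. Doublets predicted by Scrublet (3.51% of Ery cells) were kept, and leaving them out was an alternative.

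UMIs were summed per class or HBZ bin and organoid and tested with edgeR 4.0.16 (quasi-likelihood, TMM) in R 4.3.3, over 8 classes in 1 fit and 5 bins in another, with DESeq2 1.42.0 as an alternative. The class sums of 1 organoid come from 1 library, and their deviations from the class means correlated in all 28 pairs of classes (0.0486 to 0.655, median 0.33, 9301 genes), so the organoid pairs the samples, and the fit with the organoid as a block is given where it changed a call. P-values measure the spread between 2 organoids of 1 line, pooled over all classes or all bins of a fit. In the fit with the block, the shared difference between the organoids is taken out of that spread. Scripts were tested on simulated data. For Ery against Mk, 41% of genes given a log2 fold change of 1 and 74% of those given 2 were recovered. For bin 3 against bin 1 the shares were 30% and 84%. False calls made up 5.74% and 9.52% of the calls in these comparisons. A gene that did not pass can therefore have changed. The members and lists were chosen with earlier results of these data known. Genes named from the lists are the 3 with the largest change in each direction among those that passed, with values given for a few of them. Some genes of the lists and 1 added factor are not reported here. Gene positions are from the GENCODE annotation of GRCh38.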

Additional observations from a re-analysis of the deposited data

How the results depend on the processing

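The calls in Ery against Mk and in Ery against Endo were kept in each alternative that gave a p, 11 for each gene called, and RHAG and RHCE passed in 0 of 11 against Mk. The counts along the HBZ order moved more. They are not shares of 1 set of genes, since the number tested differed. It was 12497 in the main fit and with DESeq2, library sizes and the replicate block. It was 26153 without the filter on low counts, 11063 in the depth window and 12276 without predicted doublets. Without proliferation UMIs 7627 genes were tested, and 12339 in the order by all globins. In HBZ bin 3 against bin 1, 112 genes passed. This count was 220 with DESeq2, 186 with library sizes, 544 without a filter on low counts, 1009 with the organoid as a replicate block, 46 among cells of 3000 to 30000 UMIs, 315 without predicted doublets, 31 without proliferation UMIs and 672 in the order by all globins. 2 of the 8 genes instead of 4 passed without proliferation UMIs. In bin 5 against bin 3, 53 genes passed. This count was 220 with DESeq2, 1686 with library sizes, 430 without the filter, 800 with the replicate block, 18 in the depth window, 35 without doublets, 5 without proliferation UMIs and 414 by all globins. Of the 8 genes 2 passed, against 4, 5, 6, 1, 0 and 4 with DESeq2, without the filter, with the replicate block, in the depth window, without proliferation UMIs and by all globins. In bin 5 against bin 1, 2160 genes passed, against 5963 with library sizes, 3545 with the replicate block, 1094 in the depth window, 749 without proliferation UMIs and 3389 by all globins, and 5 instead of 8 of the 8 genes with library sizes. With a single organoid there was no test and CPM ratios were used. On that scale bin 5 against bin 1 was -0.014 to 0.18 for ANK1 and -0.32 to 0.047 for RHAG, and library sizes gave -0.15 for RHAG, so these directions were not stable. The alternatives with fewer cells tested fewer UMIs, and the cause of the other changes was not tested.

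The replicate block changed no other call for the 8 genes than those given with the bins. The comparison of Ery with haematopoietic progenitors was not run, because no cluster took that name in any setting. In 2 settings a cluster passed on progenitor markers alone but stayed unnamed, because its leading genes held more markers of another class. It had 395 and 1203 cells at resolution 1.2. With a stricter cell filter (1000 or more genes, mitochondrial share below 15%) it had 266 and 667 cells. Library sizes, proliferation UMIs, shared barcodes and Mk against Endo were chosen after seeing the data. Depth limits EPB42 and RHCE most: thinning to 2000 UMIs took the share of Ery cells with EPB42 from 23.2% to 4.82%, as means over the organoids.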

Other observations

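2 small clusters carried all 12 erythroid markers together with markers of another class and stayed unnamed. One, with 136 and 128 cells, passed for Ery and MES and 61.4% of its cells were predicted doublets. The other, with 34 and 121 cells, passed for Ery and Endo and 91.0% were predicted doublets. GYPB was at 515 and 672 CPM in the first and at 744 and 594 CPM in the second, GYPC at 564 and 650 CPM and 731 and 614 CPM, and SLC4A1 at 58.3 and 101 CPM and 80.9 and 83.7 CPM, in the order of the organoids.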
